A study of Danio rerio with 24 samples.

Results

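Adhesion molecules of the cell surface were followed through retinal development in zebrafish that carry or lack the young (yng) mutation. The genes were chosen by symbol: a probe set counted where its platform symbol began with cdh and a digit, pcdh, cntn, nrxn, nlgn, lrrc4, ncam, l1cam, itga, itgb, nectin, alcam or cadm. This gave 43 genes on 51 probe sets with 1 symbol, out of 8793 genes and 15502 probe sets on the array. They comprised 8 cadherins, 7 protocadherins, 4 contactins, 10 immunoglobulin adhesion molecules, 3 genes of the lrrc4 family, 4 neurexins and neuroligins, 4 integrin alpha subunits and 1 integrin beta subunit. The other 2 genes, lrrc40 and lrrc42, matched by spelling only and are counted apart, which leaves 41 adhesion genes. A further 2 probe sets carry the symbols of several clustered protocadherins each, 1 of the pcdh1g and 1 of the pcdh2a cluster, and name no single gene. For a gene with more than 1 probe set, which applied to 7 genes, the one with the highest mean over all arrays was used and the others are given where they differ.

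RNA was measured on 24 one-colour Affymetrix arrays, 3 in each of 8 groups that cross genotype, tissue and age. The genotypes were wild type (WT) and yng, a mutant of smarca4a (brg1), the gene of an ATPase that drives SWI/SNF, a complex that moves nucleosomes. The tissues were dissected retina and whole embryo, and the ages were 36 and 52 hours post fertilization (hpf). The strain was AB for every sample but 1, whose label gives none. RNA came from pooled material, 10 embryos or 10 retinas for each array, and 20 retinas in the group of yng retinas at 36 hpf. The yng mutation is a germline mutation, so it is not limited to the retina, and whole embryos include their eyes.

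Cadherins join like cells through calcium-dependent binding outside the cell and catenins inside it, and different neurons carry different cadherins and protocadherins. Immunoglobulin molecules such as contactins, NCAM, L1 and ALCAM guide growing axons and hold their bundles together. Nectins are molecules of adherens junctions, and cadm proteins form the synaptic cell adhesion family. At synapses, neurexins on the sending side bind neuroligins and other partners on the receiving side, while the lrrc4 proteins are postsynaptic partners of netrin-G. Integrins hold cells to the extracellular matrix. In the zebrafish retina neurons leave the cell cycle and extend their processes over a period that includes the ages compared here.

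Arrays of a group correlated at 0.9722 or more, and retina arrays had lower medians than embryo arrays. The arrays of each genotype were washed on a fluidics station of their own, which cannot be told apart from genotype, and 1 array (yng retina at 36 hpf, replicate 1) has a wash error on record. The probe set of smarca4a with the higher signal read 3134 to 4158 in WT and 757 to 1251 in yng, with log2 differences between -1.61 and -2.08 at each tissue and age. Values printed per array are the deposited intensities in the order of replicates 1, 2 and 3. Differences, with their SE (n = 3 arrays in each group), are on the scale of log2(intensity + 16) after quantile normalization. P-values come from limma, were adjusted by Benjamini-Hochberg over all 15502 probe sets and were called at 0.05. The added 16 shrinks the differences of dim genes, and 16 of the 43 genes lie in the dimmest 25% of the array. Pools of a group are labelled as biological replicates, and p-values rest on the spread between pools within groups, pooled over all 24 arrays. The main fit has no block, so that spread includes what arrays of the same replicate number share. In such bulk samples fewer cells of a type and less RNA per cell cannot be told apart.

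In retinas at 52 hpf the adhesion genes differed between the genotypes in 1 direction. Of the 41 adhesion genes 18 were lower in yng and none was higher, and the remaining 23 did not pass the test. Together with lrrc42, which was higher in yng, 19 of 43 genes passed, against 19.7% of all probe sets, of which 10.0% were higher and 9.70% lower. Of these 19 genes 12 differed by at least 2-fold, and 5 (cntn2, cntn5, nrxn2a, pcdh1b and pcdh8) lie in the dimmest 25% of the array. The share of all probe sets that differed by at least 2-fold was not taken. The median difference over the adhesion genes was -0.46 and over all probe sets 0.04. By family the falls numbered 2 of 3 lrrc4 genes, 3 of 4 neurexins and neuroligins, 3 of 4 contactins, 4 of 10 other immunoglobulin molecules, 2 of 8 cadherins, 4 of 7 protocadherins and 0 of 5 integrins.

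**Figure D1:**
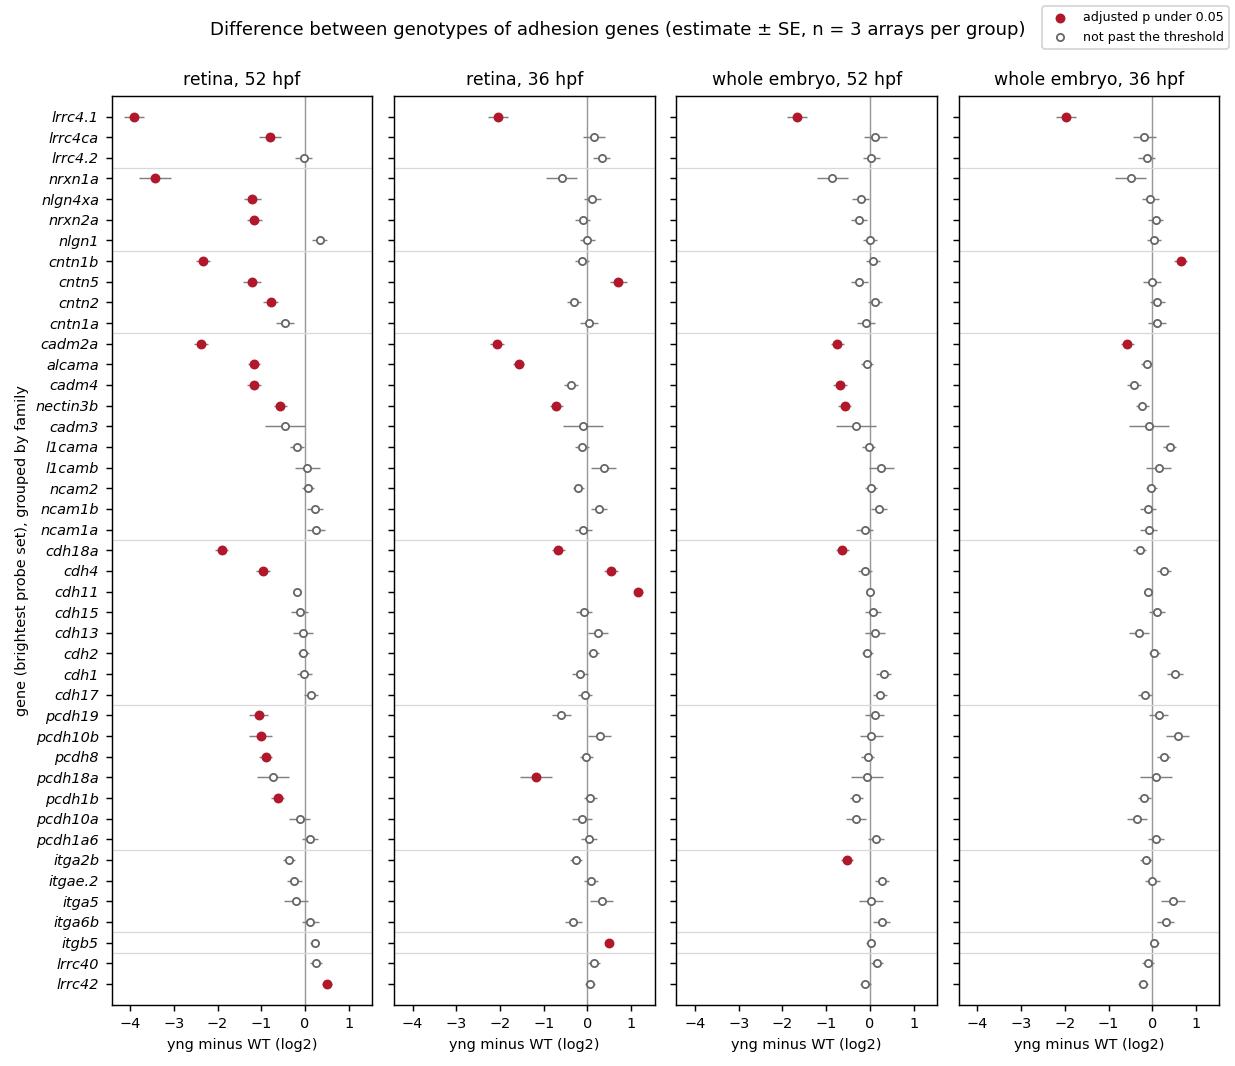
Differences between genotypes (yng minus WT, log2, estimate ± SE, n = 3 arrays per group) of the 43 genes in retinas and whole embryos at 52 and 36 hpf, with filled points for adjusted p under 0.05. At 52 hpf in the retina 18 adhesion genes lie left of 0 with filled points, led by lrrc4.1 at -3.92 and nrxn1a at -3.43, while whole embryos have 6 such points at 52 hpf and 2 at 36 hpf.

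Among the synaptic genes lrrc4.1 fell, a zebrafish copy of the gene for the netrin-G ligand LRRC4. WT retinas at 52 hpf read 376, 508 and 419, and yng retinas read 12.3, 11.3 and 13.7. Every mutant pool thus stayed below every wild-type pool by a wide margin, with a log2 difference of -3.92 ± 0.23 (adjusted p = 1.43e-10). Since the mutant values are near the floor, the size depends on the offset, with -4.74 at an offset of 1 and -2.77 at 64. Its paralogue lrrc4.2 read 65.2, 57.1 and 75.4 in WT and 50.9, 77.9 and 65.2 in yng, overlapping ranges with a difference of -0.03 ± 0.20 (adjusted p = 0.951). The third gene of the family, lrrc4ca, a copy of the gene for the netrin-G1 ligand, read 132, 137 and 162 in WT and 57.3, 64.1 and 122 in yng. Replicate 3 of the mutant came close to the lowest wild-type pool, and the difference was -0.81 ± 0.26 (adjusted p = 0.0303).

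Of the neurexins, presynaptic receptors, nrxn1a read 269.5, 209 and 334 in WT retinas and 10.4, 0 and 24.2 in yng retinas. One mutant pool was listed at 0 and the others lay far below all wild-type pools, with a difference of -3.43 ± 0.36 (adjusted p = 3.84e-07) that became -4.59 and -2.24 at offsets of 1 and 64. Its paralogue nrxn2a fell from 114, 112 and 70.1 to 31.8, 37.0 and 38.2, without overlap, with a difference of -1.16 ± 0.17 (adjusted p = 4.18e-05). Among their neuroligin partners, nlgn4xa read 170.3, 124 and 109 in WT and a narrow 52.7, 52.6 and 46.1 in yng, a difference of -1.20 ± 0.19 (adjusted p = 7.69e-05). The other neuroligin, nlgn1, read 72.5, 94.3 and 88.7 in WT and 116, 128 and 87.7 in yng, and its difference of 0.33 ± 0.17 (adjusted p = 0.19) did not pass. The mutant range of nlgn1 overlapped the wild-type range.

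**Figure D2:**
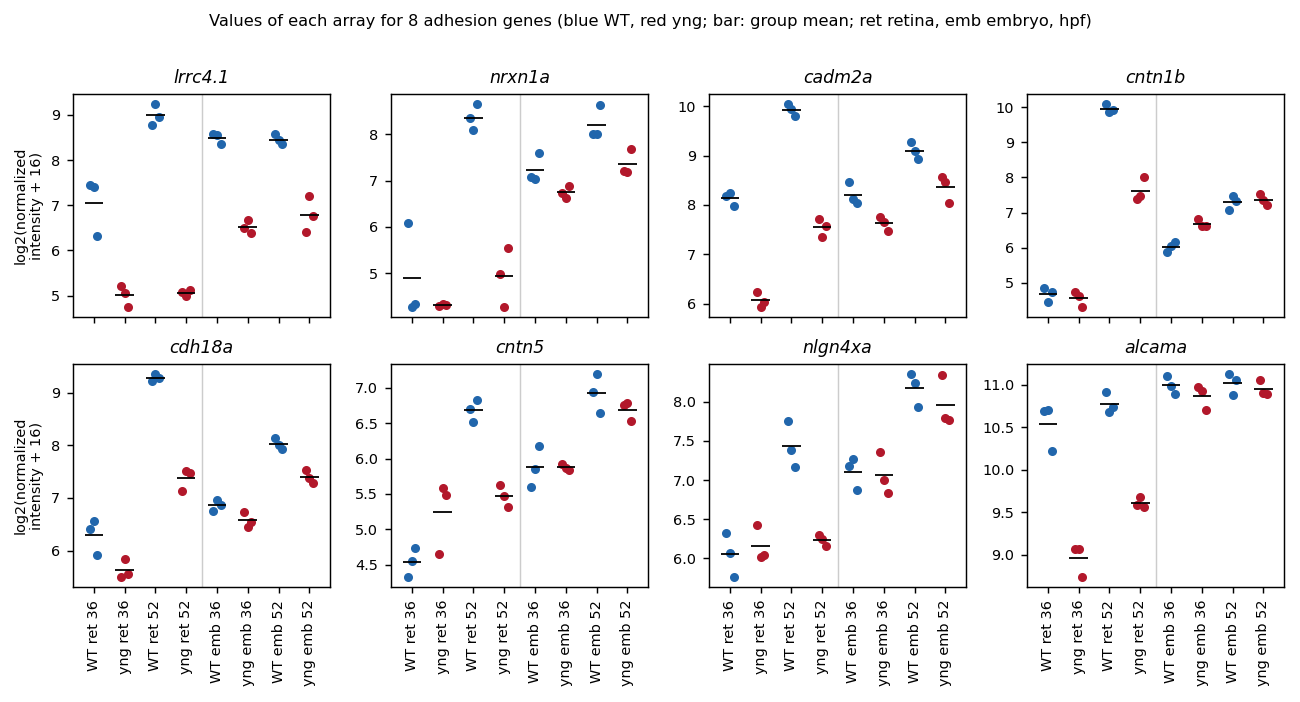
Normalized intensity (log2 of intensity + 16) of each array for 8 adhesion genes in the 8 groups, with WT in blue, yng in red and the bar at the group mean. The 8 genes were picked as those called in retinas at 52 hpf with the most negative differences. In retinas at 52 hpf the 3 yng points lie below the 3 WT points in all 8 panels, which follows largely from that choice. In lrrc4.1, cadm2a and cdh18a they do so in retinas and whole embryos of both ages.

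Contactins, axonal immunoglobulin proteins held by a lipid anchor, fell in 3 of 4 cases. Cntn1b read 1002, 812 and 882 in WT retinas and 125, 136 and 195 in yng retinas, far apart, a difference of -2.34 ± 0.16 (adjusted p = 8.82e-10). Its paralogue cntn1a read 94.2, 92.9 and 209 and 89.7, 97.7 and 71.9, where WT replicate 3 stood apart from the other wild-type pools, and the difference of -0.46 ± 0.21 (adjusted p = 0.133) did not pass. The other wild-type pools of cntn1a lay within the mutant range. Cntn5 fell from 76.0, 62.6 and 82.8 to 27.0, 22.8 and 17.8, a difference of -1.22 ± 0.20 (adjusted p = 0.000109). Cntn2, the zebrafish counterpart of the axonal molecule TAG-1, fell from 86.7, 84.1 and 62.0 to 33.7, 46.5 and 37.8, a difference of -0.79 ± 0.16 (adjusted p = 0.00112). In both genes all mutant pools were below all wild-type pools.

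Of the 10 other immunoglobulin molecules 4 fell. The largest fall was that of cadm2a, of the synaptic cell adhesion family, which read 964, 854 and 801 in WT and 156, 125 and 144 in yng, a difference of -2.38 ± 0.15 (adjusted p = 3.78e-10). Its relative cadm4 read 146, 138 and 150.3 in WT and 51.8, 69.5 and 54.5 in yng, a difference of -1.16 ± 0.16 (adjusted p = 1.44e-05). These ranges were tight in both genotypes and did not overlap. In cadm3 replicate 2 was the lowest pool in all 8 groups, at 3712, 1793 and 3983 in WT and 2231, 1222 and 3133 in yng retinas, and the difference of -0.46 ± 0.46 (adjusted p = 0.577) did not pass. With the replicate number, which follows the hybridization day, as a block the same difference had an SE of 0.09 and passed (adjusted p = 0.000628). Alcama, known in zebrafish as neurolin and a marker of growing ganglion cell axons, read 1789, 1491 and 1630.2 in WT and 626, 728 and 663 in yng, a difference of -1.17 ± 0.13 (adjusted p = 8.65e-07). Nectin3b, a molecule of adherens junctions, read 734, 549 and 474 and 327, 429 and 341, closer ranges that still did not overlap, with a difference of -0.56 ± 0.15 (adjusted p = 0.01). The genes for NCAM (ncam1a, ncam1b and ncam2) and L1 (l1cama and l1camb) did not pass, with differences between -0.19 and 0.25.

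Among the 8 cadherins 2 fell. Cdh18a, a cadherin of neurons, read 524, 551 and 541 in WT and 102, 141 and 134 in yng, a difference of -1.91 ± 0.15 (adjusted p = 5.49e-09). Cdh4, the R-cadherin named for the retina, read 525, 421 and 364 in WT and 209, 196 and 198 in yng, a difference of -0.96 ± 0.16 (adjusted p = 0.000174). The mutant pools of both genes lay close together and below all wild-type pools. Cdh2, the N-cadherin needed for retinal layering in zebrafish, read 5403, 5895 and 5541 and 4796, 5862 and 4936, overlapping ranges with a difference of -0.04 ± 0.13 (adjusted p = 0.899). The other 5 cadherins (cdh1, cdh11, cdh13, cdh15 and cdh17) had differences between -0.19 and 0.14 and did not pass.

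Of 7 protocadherins 4 fell. Pcdh19, which marks columns of neurons in the zebrafish visual system, read 755, 519.6 and 627 in WT and 285, 250.4 and 267 in yng, a difference of -1.06 ± 0.22 (adjusted p = 0.00103). Pcdh10b read 1384, 1169 and 984 and 521, 507 and 553, a difference of -1.02 ± 0.27 (adjusted p = 0.00876). Every mutant pool of both genes lay well under the lowest wild-type pool. Pcdh8, related to paraxial protocadherin, read 320.1, 180.4 and 234 and 118, 132 and 108, a difference of -0.90 ± 0.15 (adjusted p = 0.000132), and the dimmer pcdh1b differed by -0.62 ± 0.15 (adjusted p = 0.00427). Pcdh18a read 259, 212 and 195 in WT and 159.7, 134 and 91.1 in yng, without overlap. Its difference of -0.74 ± 0.37 (adjusted p = 0.192) did not pass. The SE of pcdh18a is pooled over all groups, which include the widely scattered WT retinas of the earlier age. Of the clustered protocadherins, the pcdh2a probe set read 1288, 1556 and 1261 in WT and 556, 902 and 591 in yng, a difference of -0.92 ± 0.19 (adjusted p = 0.00108). The pcdh1g probe set differed by -0.21 ± 0.13 (adjusted p = 0.326) and did not pass.

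None of the 5 integrin genes passed in these retinas. The alpha subunits itga2b (thrombocytes), itga5 (a fibronectin receptor), itga6b (a laminin receptor) and itgae.2 had differences between -0.36 and 0.12, and the beta subunit itgb5 one of 0.22 ± 0.10 (adjusted p = 0.156). At an unadjusted p under 0.05 limma gave itga2b (lower) and itgb5 (higher), and with the replicate number as a block itga2b passed narrowly (adjusted p = 0.0499868). Lrrc42, which is no adhesion molecule, rose from 163, 183 and 160.2 to 250.5, 223 and 246, a difference of 0.50 ± 0.12 (adjusted p = 0.00392).

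Markers of retinal neurons moved in the same retinas. At 52 hpf 7 of 9 ganglion cell markers were lower in yng, and their summed intensity was 15838 to 18136 in WT and 7586 to 8073 in yng. Of 12 markers of amacrine, bipolar and horizontal cells 9 were lower, with sums of 30007 to 31817 and 13871 to 15068. Photoreceptor markers were lower in 6 of 12 cases, with sums of 20662 to 21483 in WT and 18698 to 20338 in yng. Müller glia markers were lower in 4 of 7, with sums of 10008 to 10914 in WT and 5058 to 6676 in yng. Lens markers were higher in 4 of 5 cases, with sums of 86.1 to 110 in WT and 379.5 to 3633 in yng, and crygmxl2 was listed at 0 on all WT retina arrays of that age. Progenitor markers were higher in 2 and lower in 4 of 13 cases, with sums of 28163 to 28388 and 29387 to 32745, pigment markers higher in 2 of 5, muscle markers lower in 1 of 13, and blood markers higher in 1 and lower in 2 of 11. None of 12 skin markers and none of 4 vascular markers passed, and the muscle markers pvalb2 and cav3 were listed at 0 in the retinas of both genotypes at 52 hpf. The ratio of 3' to 5' signal of the gapdh control probe sets, a sign of RNA integrity, was 0.38 higher in yng on the log2 scale. The part of these in the falls of adhesion genes was not tested.

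Of the 7 genes with several probe sets, 4 gave a call in retinas that rested on the probe set chosen. The pcdh10a probe set with the highest mean differed by -0.13 ± 0.23 (adjusted p = 0.797) in retinas at 52 hpf and did not pass. Another probe set of pcdh10a read 430.1, 464 and 607 in WT and 95.1, 95.0 and 108 in yng, a difference of -2.11 ± 0.18 (adjusted p = 2.08e-08). That wide gap was also present at 36 hpf, at -1.27 ± 0.18 (adjusted p = 5.18e-05). For nectin3b the second probe set did not pass in either retina comparison and was higher in yng embryos at 36 hpf by 0.62 ± 0.13 (adjusted p = 0.00556), so the direction of nectin3b rests on the probe set. With the mean over all probe sets of a gene the calls of nectin3b in retinas at 36 hpf (adjusted p = 0.367) and of pcdh18a there (0.426) ended. The second probe set of nlgn4xa differed by -0.42 ± 0.16 (adjusted p = 0.0611) and that of pcdh18a by 0.22 ± 0.17 (adjusted p = 0.421). Both probe sets of alcama fell, the second one with a difference of -1.72 ± 0.24 (adjusted p = 1.41e-05). Neither probe set of cdh2 or cdh11 passed at 52 hpf.

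**Figure D3:**
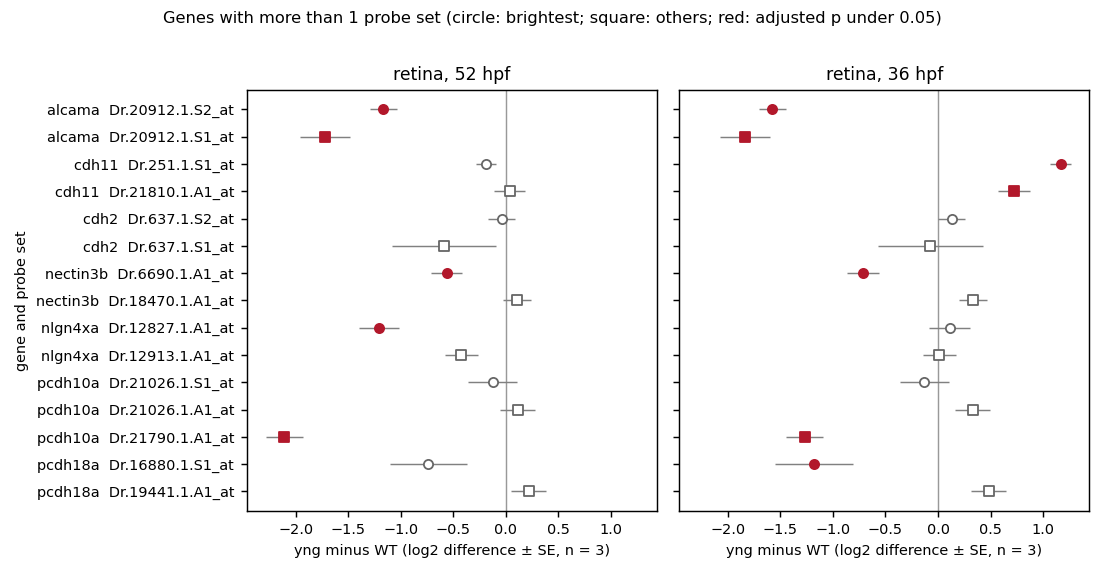
Differences between genotypes in retinas (yng minus WT, log2, estimate ± SE, n = 3) for each probe set of the 7 genes that have several, with circles for the probe set of highest mean, squares for the others and red for adjusted p under 0.05. The lowest probe set of pcdh10a lies at -2.11 at 52 hpf while the other probe sets of that gene lie near 0.

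At 36 hpf fewer adhesion genes differed, and in both directions. Of the 41 adhesion genes 6 were lower and 4 higher in yng retinas, against 9.08% of all probe sets called, 4.90% lower and 4.19% higher. Neither lrrc40 nor lrrc42 passed. Only the yng retinas of this age were pools of 20, so pool size cannot be told apart from genotype here. It also enters the other comparisons that use that group. The lower genes were cadm2a, lrrc4.1, alcama, pcdh18a, nectin3b and cdh18a, and the higher genes were cdh11, cntn5, cdh4 and itgb5. Of the 18 genes that were lower at 52 hpf 5 were also lower at 36 hpf (alcama, cadm2a, cdh18a, lrrc4.1 and nectin3b), which is 27.8% of the later list and 83.3% of the earlier one. The same overlap over all probe sets was not taken.

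Cadm2a read 206, 230.3 and 186 in WT retinas at 36 hpf and 46.0, 33.7 and 37.1 in yng retinas, a difference of -2.07 ± 0.15 (adjusted p = 1.01e-08). Lrrc4.1 read 119, 119 and 47.9 and 13.9, 9.09 and 4.02, a difference of -2.05 ± 0.23 (adjusted p = 3.17e-06). WT replicate 3 of lrrc4.1 was low for its group but above every mutant pool. Alcama read 1394, 1409 and 1057 and 426, 427 and 329.9, a difference of -1.58 ± 0.13 (adjusted p = 4.81e-08). Nectin3b read 647, 771 and 716 and 406, 449 and 394, a difference of -0.72 ± 0.15 (adjusted p = 0.00331). Cdh18a read 48.9, 62.6 and 31.6 and 20.8, 30.6 and 21.0, a difference of -0.67 ± 0.15 (adjusted p = 0.0042). All of these except cdh18a had a clear gap between the genotypes, and in cdh18a the highest mutant pool lay just under the lowest wild-type pool. Pcdh18a read 436, 195 and 66.5 in WT, a wide scatter that overlapped the 93.5, 70.9 and 60.6 of yng, with a difference of -1.18 ± 0.37 (adjusted p = 0.0499988). Leaving out any 1 of 23 of the 24 arrays ended that call, with adjusted p from 0.0506 to 0.301, and with only the arrays of retinas at 36 hpf in the fit the count of 10 genes became 5. The calls that ended there were those of pcdh18a (adjusted p = 0.374), cntn5 (0.263), cdh18a (0.152), cdh4 (0.146) and itgb5 (0.0953).

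The largest rise at 36 hpf was that of cdh11, a cadherin known from mesenchyme, which read 274, 353 and 268 in WT and 667, 765 and 725 in yng, a difference of 1.17 ± 0.10 (adjusted p = 5.97e-08). Its second probe set rose too, by 0.72 ± 0.15 (adjusted p = 0.00309). Itgb5, a vitronectin-binding integrin subunit in mammals, read 188, 225 and 231 and 315, 314 and 311, separate ranges with a difference of 0.49 ± 0.10 (adjusted p = 0.00272). Cdh4 read 153, 118 and 135 and 227, 219.7 and 177, separate as well, a difference of 0.55 ± 0.16 (adjusted p = 0.0396). Cntn5 was near the bottom of the scale at 0, 1.94 and 2.55 in WT and 3.11, 22.0 and 19.6 in yng, a difference of 0.70 ± 0.20 (adjusted p = 0.0288). The call of cdh4 ended without WT retina replicate 2 or 3 or yng retina replicate 1 or 2 of that age (adjusted p 0.0876 to 0.142). In all 4 genes every mutant pool read above every wild-type pool, in cntn5 narrowly and only as deposited. Since these 4 were picked as the genes called higher in this comparison, their separation is no separate support. The call of cntn5 ended without WT retina replicate 1 or 2 or yng retina replicate 2 or 3 (0.0603 to 0.152). Beside these values, 7 of 9 ganglion cell markers were lower in yng at 36 hpf, with sums of 9506 to 11580 in WT and 4753 to 5665 in yng, and 6 of 13 retinal progenitor markers were higher, with sums of 27087 to 28333 and 32994 to 33972. Of the amacrine, bipolar and horizontal cell markers 5 of 12 were lower, with sums of 4402 to 5968 in WT and 2775 to 4137 in yng, 4 of 11 blood markers were lower, and the gapdh 3' to 5' ratio was lower in yng by a log2 difference of -0.208. Their part in the adhesion gene differences was not tested.

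In WT retinas 16 adhesion genes rose between 36 and 52 hpf, led by cntn1b and nrxn1a. Of the 41 adhesion genes 16 rose and 2 fell, and lrrc42 fell, so 19 of 43 genes passed against 36.9% of all probe sets (16.1% higher, 20.8% lower). The median difference of all probe sets was -0.0913, and 0.0243 with the intensities as deposited, where 58.0% of called probe sets were higher in place of 43.7% and the genes counted 20 higher and 1 lower. The called rises were larger than this shift. The falls of ncam2, with a difference of -0.35 ± 0.13 (adjusted p = 0.0451), and itgb5, with -0.32 ± 0.10 (adjusted p = 0.0168), did not pass on the deposited scale. Leaving out any 1 of 15 arrays ended the call of ncam2, and leaving out WT retina replicate 3 at 36 hpf or replicate 2 at 52 hpf that of itgb5 (adjusted p 0.0702 and 0.0811). Both also ended with only the WT retina arrays in the fit (0.116 and 0.0966). Each combination of tissue and age had its own fluidics module, which cannot be told apart from age here.

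The largest rise was that of cntn1b, from 3.68, 0.0698 and 2.84 at 36 hpf to 1002, 812 and 882 at 52 hpf, a difference of 5.29 ± 0.16 (adjusted p = 8.78e-16). The gene went from the floor of the array to a strong signal in all pools. Nrxn1a rose from 34.3, 0 and 0 to 269.5, 209 and 334, with 2 of the early pools listed at 0, a difference of 3.47 ± 0.36 (adjusted p = 1.18e-07). Pcdh10b rose from 221, 102 and 58.5 to 1384, 1169 and 984, a difference of 2.98 ± 0.27 (adjusted p = 1.68e-08). Cdh18a rose from 48.9, 62.6 and 31.6 to 524, 551 and 541, a difference of 2.98 ± 0.15 (adjusted p = 1.75e-12). The early and late pools of all 4 genes were far apart. Pcdh8 rose by 2.32 ± 0.15 (adjusted p = 1.47e-10), cntn5 by 2.15 ± 0.20 (adjusted p = 2.88e-08), lrrc4.1 by 1.93 ± 0.23 (adjusted p = 8.04e-07) and cadm2a by 1.79 ± 0.15 (adjusted p = 6.69e-09). Rises between 0.83 and 1.41 were found for cdh4, nlgn4xa, nrxn2a, cadm4, pcdh19, pcdh1b and cntn2, and the rise of cdh11 was 0.27 ± 0.10 (adjusted p = 0.0324). Both clustered protocadherin probe sets rose, that of pcdh1g from 2105, 1793 and 1508 to 7397, 6589.6 and 6838 and that of pcdh2a by 1.89 ± 0.19 (adjusted p = 7.78e-08). Beside these rises 10 of 12 markers of amacrine, bipolar and horizontal cells rose, with sums of 4402 to 5968 at 36 hpf and 30007 to 31817 at 52 hpf. Ganglion cell markers rose in 6 and fell in 2 of 9 cases (sums of 9506 to 11580 and 15838 to 18136), and photoreceptor markers rose in 9 of 12 (6357 to 8879 and 20662 to 21483). The gapdh 3' to 5' ratio changed by -0.419 on the log2 scale. The part of these was not tested.

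In yng retinas over the same period 6 adhesion genes rose, and 3 fell together with lrrc42, so 10 of 43 genes passed against 25.6% of all probe sets (12.2% higher, 13.4% lower). With the intensities as deposited 57.9% of called probe sets were higher in place of 47.5%, and the genes counted 9 higher and 3 lower. The rises were those of cntn1b at 3.07 ± 0.16 (adjusted p = 1.62e-11), cdh18a at 1.75 ± 0.15 (adjusted p = 1.13e-08), pcdh10b at 1.69 ± 0.27 (adjusted p = 4.84e-05), cadm2a at 1.48 ± 0.15 (adjusted p = 1.65e-07), pcdh8 at 1.44 ± 0.15 (adjusted p = 2.34e-07) and alcama at 0.65 ± 0.13 (adjusted p = 0.000543). All but alcama also rose in WT retinas, which is 5 of the 16 genes that rose there, or 31.2%, and 83.3% of the 6. The matching overlap over all probe sets was not taken. Cdh11 fell by 1.08 ± 0.10 (adjusted p = 2.94e-08) where in WT retinas it rose, itgb5 fell by 0.60 ± 0.10 (adjusted p = 0.00011) and lrrc4ca changed by -0.73 ± 0.26 (adjusted p = 0.0429). The call of lrrc4ca did not pass on the deposited scale (adjusted p = 0.0974) or with only the yng retina arrays in the fit (0.0888), and ended without WT embryo replicate 1 at 36 hpf or yng retina replicate 1 or 2 at either age (0.0507 to 0.184), and its sign was not the same on all 3 hybridization days. Nrxn1a was listed at 0 on all yng retina arrays at 36 hpf and read 10.4, 0 and 24.2 at 52 hpf, which did not pass (adjusted p = 0.226). In the same retinas all 12 markers of amacrine, bipolar and horizontal cells rose, with sums of 2775 to 4137 at 36 hpf and 13871 to 15068 at 52 hpf. Ganglion cell markers rose in 6 and fell in 2 of 9 cases (sums of 4753 to 5665 and 7586 to 8073), photoreceptor markers rose in 7 of 12 (7007 to 8376 and 18698 to 20338), and the gapdh ratio changed by 0.171. Their part was not tested.

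**Figure D4:**
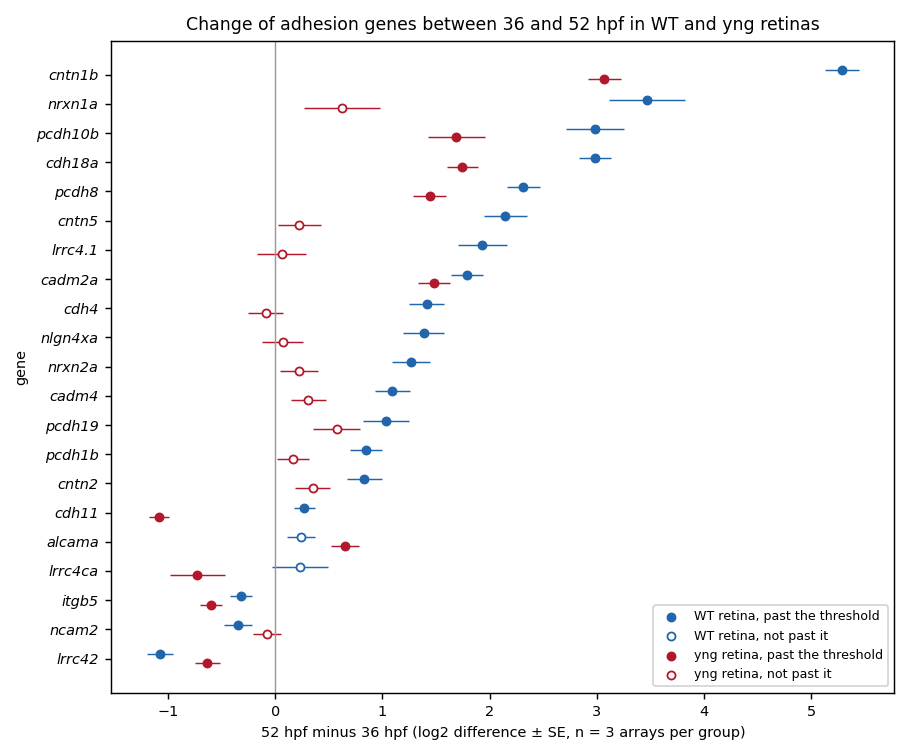
Change from 36 to 52 hpf (log2 difference ± SE, n = 3 arrays per group) in WT retinas (blue) and yng retinas (red) for the genes past the threshold in either genotype, with filled points for adjusted p under 0.05. The WT point lies to the right of the yng point for every gene from cntn1b at 5.29 down to cdh11 at 0.27. Below that range it lies to the left for alcama, ncam2 and lrrc42.

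The test of the difference itself, the retinal genotype by time interaction, called 10 adhesion genes, all negative, so that yng minus WT was lower at 52 than at 36 hpf, against 4.11% of all probe sets, of which 2.86% were in that direction and 1.25% in the other. For nrxn1a the interaction was -2.84 ± 0.50 (adjusted p = 0.00127), a value that rests on arrays listed at 0 and did not pass with an offset of 1 in place of 16 (adjusted p = 0.0596). For cntn1b it was -2.22 ± 0.22 (adjusted p = 1.67e-06), with values at 36 hpf of 3.68, 0.0698 and 2.84 in WT and 4.27, 1.33 and 0 in yng, all near the floor. For cntn5 it was -1.92 ± 0.28 (adjusted p = 0.000188) and for cdh4 -1.50 ± 0.23 (adjusted p = 0.00032), both of which were higher in yng at 36 hpf and lower at 52 hpf. For lrrc4.1 it was -1.87 ± 0.32 (adjusted p = 0.001), on top of a fall at both ages. The other called genes were cdh11 at -1.36, nlgn4xa at -1.31, cdh18a at -1.24, nrxn2a at -1.05 and pcdh8 at -0.88. Cadm2a, alcama and nectin3b, which were lower at both ages, did not pass this test, with interactions of -0.31, 0.41 and 0.15.

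In whole embryos lrrc4.1 and cadm2a were again lower in yng. At 52 hpf 6 adhesion genes were lower and none higher, against 5.90% of all probe sets (3.13% lower, 2.77% higher), and at 36 hpf 2 were lower and 1 higher, against 5.95% (3.17% lower, 2.78% higher). Lrrc4.1 read 445, 405 and 371 in WT and 82.9, 159 and 114 in yng embryos at 52 hpf, a difference of -1.66 ± 0.23 (adjusted p = 6.93e-05). At 36 hpf the values were 412, 426 and 377 and 88.9, 98.3 and 78.3, a difference of -1.98 ± 0.23 (adjusted p = 1.01e-05). The gap of lrrc4.1 was thus wide in both tissues at both ages. Cadm2a read 712, 625 and 553 in WT and 426, 420.3 and 298 in yng at 52 hpf, a difference of -0.74 ± 0.15 (adjusted p = 0.00353), and differed by -0.58 ± 0.15 (adjusted p = 0.0245) at 36 hpf. The 52 hpf falls of cadm4 at -0.68 ± 0.16 (adjusted p = 0.0109), cdh18a at -0.63 ± 0.15 (adjusted p = 0.00923), nectin3b at -0.57 ± 0.15 (adjusted p = 0.0253) and itga2b, from 35.4, 33.6 and 34.2 to 20.7, 22.4 and 17.97 at -0.52 ± 0.14 (adjusted p = 0.0287), were small. In nectin3b the genotypes overlapped in the deposited intensities but not after normalization. Cntn1b was higher in yng embryos at 36 hpf, at 113, 94.7 and 96.1 against 50.6, 59.9 and 65.2 in WT, a difference of 0.65 ± 0.16 (adjusted p = 0.0149). Nrxn1a did not pass in embryos. At 52 hpf it read 297, 293 and 444 in WT and 156, 156 and 231 in yng, without overlap, a difference of -0.86 ± 0.36 (adjusted p = 0.206). At 36 hpf the difference was -0.49 ± 0.36 (adjusted p = 0.535), again without overlap. The SE of nrxn1a is pooled over all 8 groups, which include retina arrays listed at 0.

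These embryo calls were sensitive to single arrays. The count at 52 hpf went from 6 to 3 without WT embryo replicate 1 or without yng embryo replicate 3, and the count at 36 hpf from 3 to 1 without WT embryo replicate 1. At 52 hpf itga2b failed without WT embryo replicate 1, 2 or 3 or yng embryo replicate 1 or 3 (adjusted p 0.076 to 0.125), and nectin3b without WT embryo replicate 1 or 2 or yng embryo replicate 1 or 3 (0.0653 to 0.14). Cadm4 failed without WT embryo replicate 3 or yng embryo replicate 2 (0.0873 and 0.0766) and cdh18a without WT embryo replicate 1 or yng embryo replicate 3 (0.0521 and 0.0565). The call of nectin3b also ended with the mean over its probe sets (0.757). At 36 hpf cadm2a failed without WT embryo replicate 1 or yng embryo replicate 2 or 3 (0.0627 to 0.151) and cntn1b without replicate 1 of WT or yng embryos (0.0819 and 0.0724). With hybridization day as a block 5 genes passed at 36 hpf in place of 3, and also 5 in place of 3 for the interaction of genotype and tissue at that age. Lrrc4.1 at both ages and cadm2a at 52 hpf passed in all 24 omissions. With only the groups compared in the fit the calls of cadm4 (0.112) and nectin3b (0.126) at 52 hpf and of cadm2a at 36 hpf (0.0892) ended. At 52 hpf 2 of 12 markers of amacrine, bipolar and horizontal cells and 0 of 9 ganglion cell markers were lower in yng embryos by limma, with sums of 17634 to 18312 against 13783 to 14898 and of 13087 to 14109 against 10654 to 10741, WT before yng. Some of these markers, such as stmn2a and lhx1a, were lower in WT retina than in WT embryo at 52 hpf, while others were higher. The sums in embryos are therefore not those of retinal cells alone. The gapdh 3' to 5' ratio differed by 0.266 at that age. The part of these in the embryo differences was not tested.

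The difference between genotypes was set against that in whole embryos by the interaction of genotype and tissue. At 52 hpf 14 of 43 genes passed, against 6.84% of all probe sets (4.29% negative, 2.55% positive). Adhesion genes were 13 of these, all negative, so that yng minus WT was lower in retinas than in embryos. The largest values were those of nrxn1a at -2.58 ± 0.50 (adjusted p = 0.00231), cntn1b at -2.41 ± 0.22 (adjusted p = 5.36e-07), lrrc4.1 at -2.26 ± 0.32 (adjusted p = 0.000108), cadm2a at -1.64 ± 0.21 (adjusted p = 4.17e-05) and cdh18a at -1.27 ± 0.21 (adjusted p = 0.00037). The other 8 adhesion genes (pcdh19, alcama, nlgn4xa, cntn5, nrxn2a, cntn2, pcdh8 and cdh4) had values from -1.18 to -0.84, and lrrc42 had 0.61. The count of 14 fell to 7 without WT retina replicate 1 and to 9 without yng embryo replicate 1 of that age. At 36 hpf 3 genes passed, against 2.37% of all probe sets (1.52% lower, 0.845% higher), namely cadm2a at -1.49 ± 0.21 (adjusted p = 0.000245), alcama at -1.45 ± 0.18 (adjusted p = 6.39e-05) and, in the other direction, cdh11 at 1.27 ± 0.14 (adjusted p = 1.14e-05). Alcama in embryos read 2323, 2223 and 2129.8 in WT and 2142, 2058 and 1792 in yng at 36 hpf, ranges that overlapped, as they did not in retinas. Cdh11 in embryos read 1949, 1806 and 1749 and 1829.5, 1698 and 1575 at that age.

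Between retina and whole embryo of WT the scaling of arrays mattered, since retina arrays had lower medians. Quantile normalization put the median difference of all probe sets at 0.39 at 36 hpf and 0.37 at 52 hpf, and the intensities as deposited put it at -0.082 and -0.0224. The share of called probe sets that were higher in retina moved with it, from 69.5% to 33.4% at 36 hpf and from 71.2% to 37.0% at 52 hpf. The normalized data called 34 of the 43 genes at 36 hpf (15 higher in retina, 19 lower) and 32 at 52 hpf (22 higher, 10 lower), against 73.6% (51.1% higher, 22.4% lower) and 70.0% (49.8% higher, 20.2% lower) of all probe sets. The deposited scale called 6 higher and 22 lower at 36 hpf, and 11 higher and 14 lower at 52 hpf. Only directions called under quantile normalization, median scaling and the deposited scale alike are given here, which were 6 higher and 18 lower at 36 hpf and 11 higher and 9 lower at 52 hpf.

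Lower in retina at both ages were cdh1, cdh11, cdh13, cdh17, itga5, itga6b, pcdh18a, cadm4 and nlgn4xa. Cdh1, the E-cadherin of epithelia, read 0, 0.827 and 2.45 in WT retinas and 580.4, 532 and 442 in WT embryos at 52 hpf, a difference of -4.40 ± 0.18 (adjusted p = 5.25e-15). Cdh17, known in zebrafish from the kidney duct, read 22.5, 13.0 and 11.5 and 408, 427 and 359, a difference of -3.24 ± 0.16 (adjusted p = 2.27e-13). Itga6b read 7.33, 10.2 and 3.95 and 454, 284 and 349.9, a difference of -3.49 ± 0.19 (adjusted p = 1.33e-12). In these genes every retina pool was low and every embryo pool high. The sum of 12 skin markers beside them was 573 to 624 in WT retinas and 50759 to 57067 in WT embryos at 52 hpf, and its part was not tested. At 52 hpf the difference was -2.23 for itga5, -2.21 for cdh11 and -1.65 for pcdh18a. The other 3 integrins were not lower under all 3 scalings at either age.

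Higher in retina at both ages were cadm3, cdh2, lrrc40 and lrrc42. Cadm3 read 2613, 1474 and 3849 in WT retinas and 955, 526 and 1168 in WT embryos at 36 hpf, a difference of 1.88 ± 0.46 (adjusted p = 0.00121), with replicate 2 the lowest of each group. Cdh2 read 5403, 5895 and 5541 and 4119.6, 4091 and 3422 at 52 hpf, a difference of 0.73 ± 0.13 (adjusted p = 4.4e-05). Of the genes that rose with age in WT retinas, cntn1b was lower in retina than in embryo at 36 hpf, with a difference of -1.35 ± 0.16 (adjusted p = 2.09e-07), and higher at 52 hpf, with 2.67 ± 0.16 (adjusted p = 3.95e-12). Cdh18a went from -0.56 ± 0.15 (adjusted p = 0.00178) to 1.25 ± 0.15 (adjusted p = 2.36e-07) in the same way. Pcdh8 was higher in retina at 52 hpf by 2.47 ± 0.15 (adjusted p = 6.88e-12), at 320.1, 180.4 and 234 against 53.4, 39.8 and 50.7, followed by cdh4, l1cama, ncam1b and cadm2a at 1.04, 1.01, 0.99 and 0.82. Nrxn1a, lrrc4.1, pcdh10b and cntn5 were lower in retina at 36 hpf and passed in neither direction under all 3 scalings at 52 hpf.

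**Figure D5:**
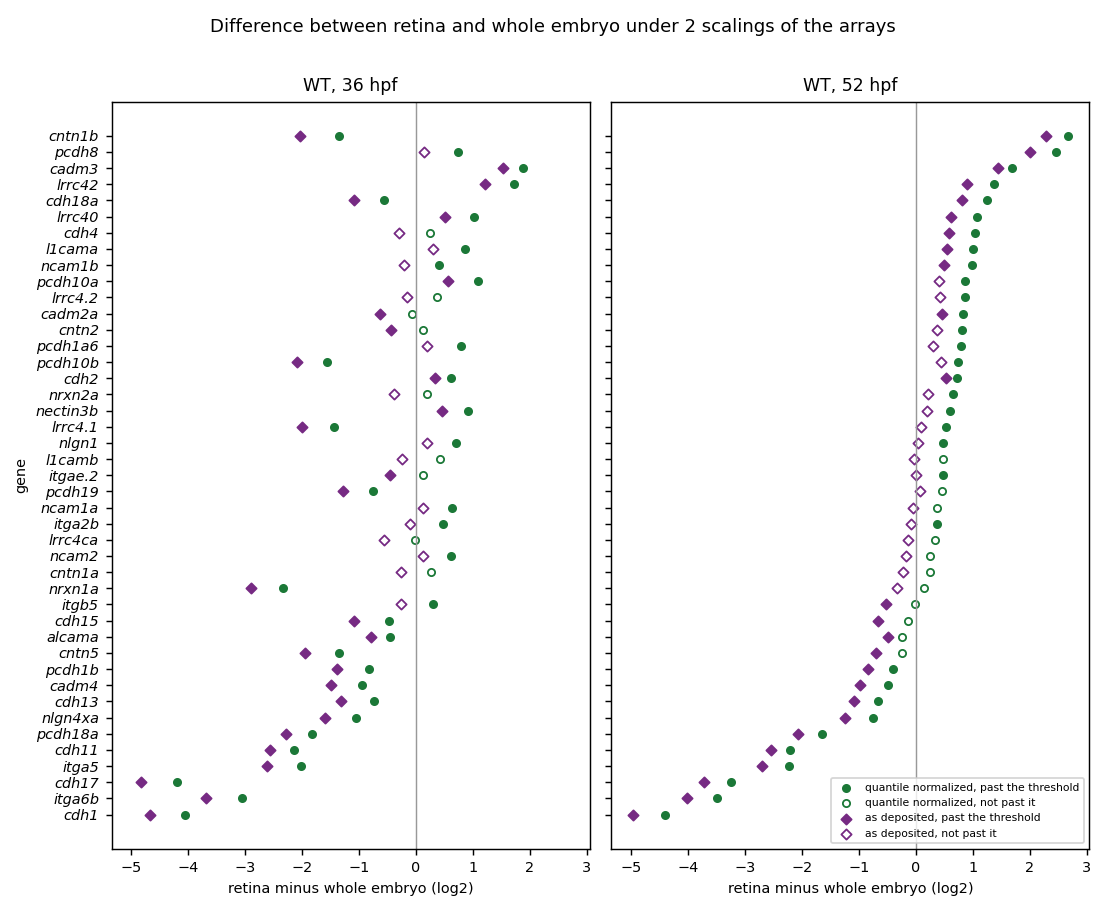
Difference between retina and whole embryo of WT (log2) of the 43 genes at 36 and 52 hpf, after quantile normalization (green circles) and with intensities as deposited (purple diamonds), filled where adjusted p is under 0.05. The purple points lie left of the green ones throughout, and cdh1, itga6b, cdh17, itga5 and cdh11 lie far to the left on both scales.

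Over time in whole embryos the changes were smaller. In WT embryos 10 adhesion genes rose and cdh17 and lrrc42 fell, so 12 of 43 genes passed against 14.3% of all probe sets (7.34% higher, 6.99% lower). The rises were led by cntn1b, from 50.6, 59.9 and 65.2 to 147, 197 and 175 at 1.27 ± 0.16 (adjusted p = 1.16e-05), by cdh18a at 1.16 ± 0.15 (adjusted p = 1.33e-05) and by nlgn4xa at 1.07 ± 0.19 (adjusted p = 0.000524), and cdh17 fell by 0.78 ± 0.16 (adjusted p = 0.00194). In yng embryos 6 adhesion genes rose and lrrc42 fell, against 8.83% (5.04% higher, 3.79% lower), and with the deposited intensities 68.1% of called probe sets were higher in place of 57.1%. The 6 genes (nlgn4xa, cdh18a, cntn5, cadm2a, cntn1b and cdh11) had rises of 0.44 to 0.90. The rises of cadm4 and cdh4 in WT embryos each failed on leaving out either of 2 arrays (adjusted p 0.0562 and 0.0777 for cadm4, 0.0893 and 0.0904 for cdh4), and so did that of cntn5 in yng embryos (0.0514 and 0.0522). With only the groups compared in the fit the calls of cadm4 (0.0887) and cdh4 (0.0814) in WT embryos and of cdh11 in yng embryos (0.0568) ended.

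Partners of these molecules were followed in lists by function. Their counts stand beside 19.7% of all probe sets called in retinas at 52 hpf. Of 13 measured catenins and other cadherin partners 2 were lower and 1 higher in yng retinas at 52 hpf, among them the catenin relative arvcfb at -0.78 ± 0.15 (adjusted p = 0.000437) and the atypical cadherin celsr1a at 0.46 ± 0.15 (adjusted p = 0.0417). The neuronal alpha catenin ctnna2 was lower at 36 hpf, with a difference of -1.31 ± 0.24 (adjusted p = 0.000815), and did not pass at 52 hpf. Of 12 integrin adaptors 2 were higher at 52 hpf, the focal adhesion gene pxna by 0.99 ± 0.13 (adjusted p = 1.23e-05) and the integrin-linked kinase ilk by 0.60 ± 0.10 (adjusted p = 0.000194), and the kinase src was lower, with -0.85 ± 0.17 (adjusted p = 0.000726). Of 12 matrix ligands of integrins 2 were lower and 1 higher, with tenascin R (tnr), a matrix protein of nervous tissue that contactins bind, lower with a difference of -2.39 ± 0.21 (adjusted p = 4.56e-08). Of 14 other neural and synaptic adhesion genes 6 were lower and 1 higher, led by the axon receptor robo2 at -2.03 ± 0.17 (adjusted p = 1.64e-08), astn1 at -1.02 ± 0.14 (adjusted p = 9.33e-06) and the teneurin tenm3 at -0.93 ± 0.14 (adjusted p = 4.48e-05). In WT retinas over time tnr rose by 4.26 ± 0.21 (adjusted p = 2.7e-12), robo2 by 2.70 ± 0.17 (adjusted p = 7.56e-11), ctnna2 by 2.36 ± 0.24 (adjusted p = 8.82e-08) and the synaptic gene clstn1 by 1.54 ± 0.12 (adjusted p = 3.09e-09), while pxna fell by 0.92 ± 0.13 (adjusted p = 1.22e-05). Over that time 36.9% of all probe sets were called. Each list held genes called in both directions. Among ligands vtnb also rose and thbs1b, lamb1a, lama5 and lama4 fell. Among cadherin partners jupa, arvcfb and ctnnbip1 also rose and dspa, ctnna1, ctnnb1 and ctnnd1 fell. Among adaptors src, ptk2aa and tln2a rose and ilk, parvaa and bcar1 fell too. Of the other neural genes robo3, dlg1a, astn1, robo1 and negr1 also rose and dlgap1a fell. Robo2 is also on the ganglion cell marker list.

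Position in the genome was compared with these values through the RefSeq gene table, in which all 43 genes were found. Pcdh10a and pcdh18a are neighbours with no protein-coding gene between them. At 36 hpf pcdh18a and the probe set of pcdh10a that differed by genotype were both lower in yng retinas, at -1.18 and -1.27, while the other probe sets of each gene did not pass and the call of pcdh18a ended in 23 of 24 omissions. At 52 hpf that pcdh10a probe set was at -2.11 and pcdh18a, at -0.74 (adjusted p = 0.192), did not pass. Only itga2b lies on the chromosome of smarca4a, 45 protein-coding genes away from it. It was among the 6 genes lower in yng embryos at 52 hpf.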

How the data were processed

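Total RNA of pooled retinas or embryos was amplified by two-cycle labelling and hybridized to Affymetrix zebrafish arrays, per the labels' protocols. The authors deposited 1 linear intensity per probe set and array, and the sources used here do not give how probes were summarised or arrays scaled. Array medians differed by up to 0.67 on the log2 scale, so the deposited intensities were quantile-normalized over 24 arrays before log2(intensity + 16) was taken. All 115 control probe sets were left out. A mean per group was fitted with limma 3.58.1 (R 4.3.3, 16 residual and 4.25 prior degrees of freedom), which holds the full factorial model the submitters describe, for 13 contrasts. The script was tested on simulated data.

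Symbols came from the platform annotation: 10795 probe sets have 1, 135 several and 4572 none. The genes, partner lists and marker lists were chosen with earlier results of these data known. Any gene matching the name pattern could be named. Array values were given for those of largest difference past the threshold and for some genes that did not pass. The hybridization records give replicates of the same number the same day, except WT embryo replicate 3 at 52 hpf. Deviations from group means correlated at a median of 0.331 (lowest 0.0743) for the same number and -0.169 for others, and 24 of 24 arrays matched best with their own number. Alternatives were other scalings, offsets of 1 and 64, a filter on dim probe sets, day and replicate blocks, smaller fits, unmoderated variances, probe set means and the omission of each array.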

Additional observations from a re-analysis of the deposited data

Results flagged for a closer look

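Adhesion genes appear here where limma's interaction passed at an adjusted p of 0.05, that is, where the difference between yng and WT itself differed between ages or tissues. Each value is a difference of log2 differences.

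Between 52 and 36 hpf in retinas the interactions were nrxn1a -2.84, cntn1b -2.22, cntn5 -1.92, lrrc4.1 -1.87, cdh4 -1.50, cdh11 -1.36, nlgn4xa -1.31, cdh18a -1.24, nrxn2a -1.05 and pcdh8 -0.88. All 10 were negative, so yng minus WT was lower at 52 than at 36 hpf. Cntn5, cdh4 and cdh11 were above WT at 36 hpf. At 52 hpf cntn5 and cdh4 were below WT, and cdh11 did not pass. Nrxn1a was listed at 0 on all yng retina arrays at 36 hpf. Some WT retina arrays of that age were listed at 0 for nrxn1a too, and its genotype difference there was not called. The interaction of nrxn1a did not pass with an offset of 1.

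Between retina and whole embryo at 36 hpf they were cadm2a -1.49, alcama -1.45 and cdh11 1.27. At 52 hpf they were nrxn1a -2.58, cntn1b -2.41, lrrc4.1 -2.26, cadm2a -1.64, cdh18a -1.27, pcdh19 -1.18, alcama -1.10, nlgn4xa -0.99, cntn5 -0.98, nrxn2a -0.91, cntn2 -0.91, pcdh8 -0.85, cdh4 -0.84 and lrrc42 0.61. Of these 14, lrrc42 alone had a positive value, and the cadherin cdh11, positive at 36 hpf, was not among them. Each of the 2 tissues went through its own wash modules, which cannot be told apart from tissue here.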

How the results depend on the processing

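Of 99 differences of single genes, 22 lost their call in at least 1 of 34 settings and 0 changed direction. The counts of called genes moved by more than 1.5 times in these cases. Leaving out the dimmest 25% of probe sets gave 21 genes between WT tissues at 52 hpf in place of 32, since fewer genes were tested. Hybridization day as a block gave 5 genes in place of 3 both for the genotypes in embryos at 36 hpf and for genotype by tissue at 36 hpf. Fitting only the groups compared gave 5 genes in place of 10 for the genotypes in retinas at 36 hpf, with fewer arrays behind each variance. Leaving out 1 array at a time gave 18 to 20 genes for the genotypes in retinas at 52 hpf, 7 to 10 in retinas at 36 hpf, 3 to 7 in embryos at 52 hpf and 1 to 4 in embryos at 36 hpf. It gave 16 to 20 genes for time in WT retinas, 9 to 12 in yng retinas, 9 to 14 in WT embryos and 6 to 8 in yng embryos, 31 to 34 and 29 to 33 for tissue at 36 and 52 hpf, 8 to 12 for genotype by time, 3 to 4 for genotype by tissue at 36 hpf and 7 to 15 at 52 hpf.

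With the replicate number as a block the counts in the same order were 21, 11, 7, 4, 23, 12, 17, 10, 34, 35, 13, 4 and 15, and 1 call was lost, that of ncam1b between WT tissues at 36 hpf (adjusted p = 0.0508). The block added cadm3 and itga2b in retinas at 52 hpf, pcdh19 in retinas at 36 hpf, and cadm3 and cdh1 in embryos at 52 and 36 hpf. Outside the omissions of arrays, calls of named genes ended most often with only the groups compared (14 calls), then with deposited intensities and with an offset of 1 (6 each), the shift to 1 median (4), the mean over probe sets and unmoderated variances (3 each) and an offset of 64 (2). An offset of 1 ended those of cntn1b between embryos at 36 hpf (adjusted p = 0.107), cdh17 over time in WT embryos (0.0565), and cntn5 (0.0885) and cntn1b (0.096) over time in yng embryos. Apart from the settings whose construction is named above, the cause was not tested.

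The 3 arrays per group limit the precision, and 16 of the 43 genes are in the dimmest 25% of the array. Most genes rest on 1 probe set.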
